A study of Mus musculus with 28 samples.

Results

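Naïve CD4+ T cells of WT mice were activated through the T cell receptor with TGF-β alone or with TGF-β plus IL-4, and the question was which transcripts moved when IL-4 was added to TGF-β. The comparison took 6 of the 28 libraries of the series, all RNA-seq, with 3 libraries from TGF-β cultures and 3 from TGF-β + IL-4 cultures. They were chosen by genotype and cytokine, not by any measured value. The series holds 24 RNA-seq libraries in all, from WT and *Tgfbr1* KO mice, and 4 DNase-seq libraries. Both groups came from *Tgfbr1* f/f *ER*-*cre*+ mice on a C57BL/6 background that had received oil in place of tamoxifen, so the floxed allele and the Cre were carried by every library compared, and anti-CD3 and anti-CD28 were present in every culture. The mice were of both sexes and 8 to 10 weeks old. The labels number the libraries of each culture 1 to 3 and do not say whether a number is a mouse, so p-values measure the spread between these libraries, which may be technical. How long the cells for RNA-seq were cultured is not given in the sources used here.

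IL-4 binds a receptor built from IL-4Rα and the common γ chain, and the Janus kinases on it phosphorylate Stat6, which dimerizes and turns on genes such as *Gata3*, *Socs1* and *Il4ra* itself. TGF-β alone drives activated CD4+ T cells towards Foxp3+ regulatory T cells (Treg), and with IL-6 towards Th17 cells. TGF-β with IL-4 is the classical mixture for Th9 cells, named after the cytokine IL-9, whereas IL-4 without TGF-β favours Th2 cells.

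The columns of the expression table conflict with their headings, and this bears on every value below. Read counts that the study lists for 8 of the WT libraries were compared with the columns by which genes stood at 0. All 8 fitted the column that holds their place when the columns are read in order of library number (state of 99.8% to 99.9% of genes alike, against 72.0% to 85.8% for the next best column), so the columns were assigned in that order. Of the 6 columns compared, 5 carry the heading of another library and 4 that of another culture. The read counts identify 4 of the 6, and the columns taken as replicate 2 of each culture rest on the order alone. Main counts are therefore given also without replicate 2. With the columns taken as headed, no gene passed the test in limma in either direction (289 genes at an unadjusted p under 0.05).

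Expression was measured as RPKM, reads per gene normalized for gene length and for the mapped reads of each library, for 24089 genes. A gene was tested where its mean over the 6 libraries was at least 1, which left 9852 genes, and it was called where limma on log2(RPKM + 1) gave a difference of more than 1.5-fold and a p, adjusted after Benjamini and Hochberg over all genes tested, below 0.01. Libraries correlated at 0.995 to 0.997 within a culture and at 0.988 to 0.992 between cultures, and the first principal component, 59.3% of the variance, parted the cultures. TGF-β replicate 2 stood apart from the other TGF-β libraries on the second component (13.6%). The relative depth, from the steps between low RPKM values, was 1.12 to 1.43 in the TGF-β libraries and 0.828 to 1.00 in the TGF-β + IL-4 libraries, so every TGF-β library was deeper. Its part in the results was not tested. T cell genes such as *Cd3e* and *Cd4* were high throughout, with a sum over 10 markers of 2517 to 2549 RPKM with TGF-β and 2675 to 2706 RPKM with TGF-β + IL-4, and *Tgfbr1* stood at 13.9 to 20.7 RPKM in all 6. In bulk RNA, fewer cells of a type and less RNA per cell cannot be told apart.

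Adding IL-4 to TGF-β raised 249 genes, 2.53% of those tested, and lowered 50 genes, 0.508%. The median difference over all genes tested was 0.00 on the log2 scale. Each list of genes below is to be read against these shares and this median. Without replicate 2 the counts were 286 higher (2.90%) and 166 lower (1.68%), and 231 of the 249 and all 50 were among them. The number of lower genes turned on TGF-β replicate 2, without which it was 180, while it was 30 without TGF-β replicate 1, 27 without TGF-β replicate 3, 61, 32 and 27 without TGF-β + IL-4 replicates 1, 2 and 3. The number of higher genes lay between 202 and 263 when single libraries were left out.

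Among the 12 largest increases were the genes of 6 secreted proteins, *Ccl24*, *Csf1*, *Il2*, *Gzma*, *Ccl17* and *Chil3*. *Ccl24*, the eosinophil attractant eotaxin-2, was at 0.217, 0.115 and 0.0447 RPKM in the TGF-β libraries and at 7.52, 5.31 and 4.55 RPKM with IL-4. It was thus close to absent in every library without IL-4, and its mean was 46.2 times as high with it (log2 change 2.57 ± 0.15, SE, adjusted p = 7.5e-06). *Csf1*, the macrophage growth factor M-CSF, was at 0.722, 0.594 and 0.548 RPKM and rose to 6.56, 5.16 and 6.24 RPKM (2.10 ± 0.10, adjusted p = 2.1e-06). *Il2*, the T cell growth factor, was at 10.3, 9.75 and 10.6 RPKM and rose to 40.3, 38.5 and 34.5 RPKM (1.79 ± 0.07, adjusted p = 1.3e-06). The serine protease granzyme A, encoded by *Gzma*, rose from 4.97, 5.52 and 6.72 RPKM to 29.5, 29.9 and 27.3 RPKM (2.16 ± 0.09, adjusted p = 1.9e-06). For these 4 genes the lowest library with IL-4 lay far above the highest without it. *Ccl17*, a ligand of the chemokine receptor Ccr4, was at 4.76, 1.80 and 3.58 RPKM and rose to 21.4, 18.3 and 11.0 RPKM (2.04 ± 0.28, adjusted p = 0.0012), with a wide spread in both cultures that did not overlap. *Chil3*, a chitinase-like protein known from IL-4-activated macrophages, was at 3.43, 0.986 and 1.36 RPKM and rose to 16.4, 14.7 and 8.88 RPKM (2.34 ± 0.29, adjusted p = 0.00073).

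**Figure D1:**
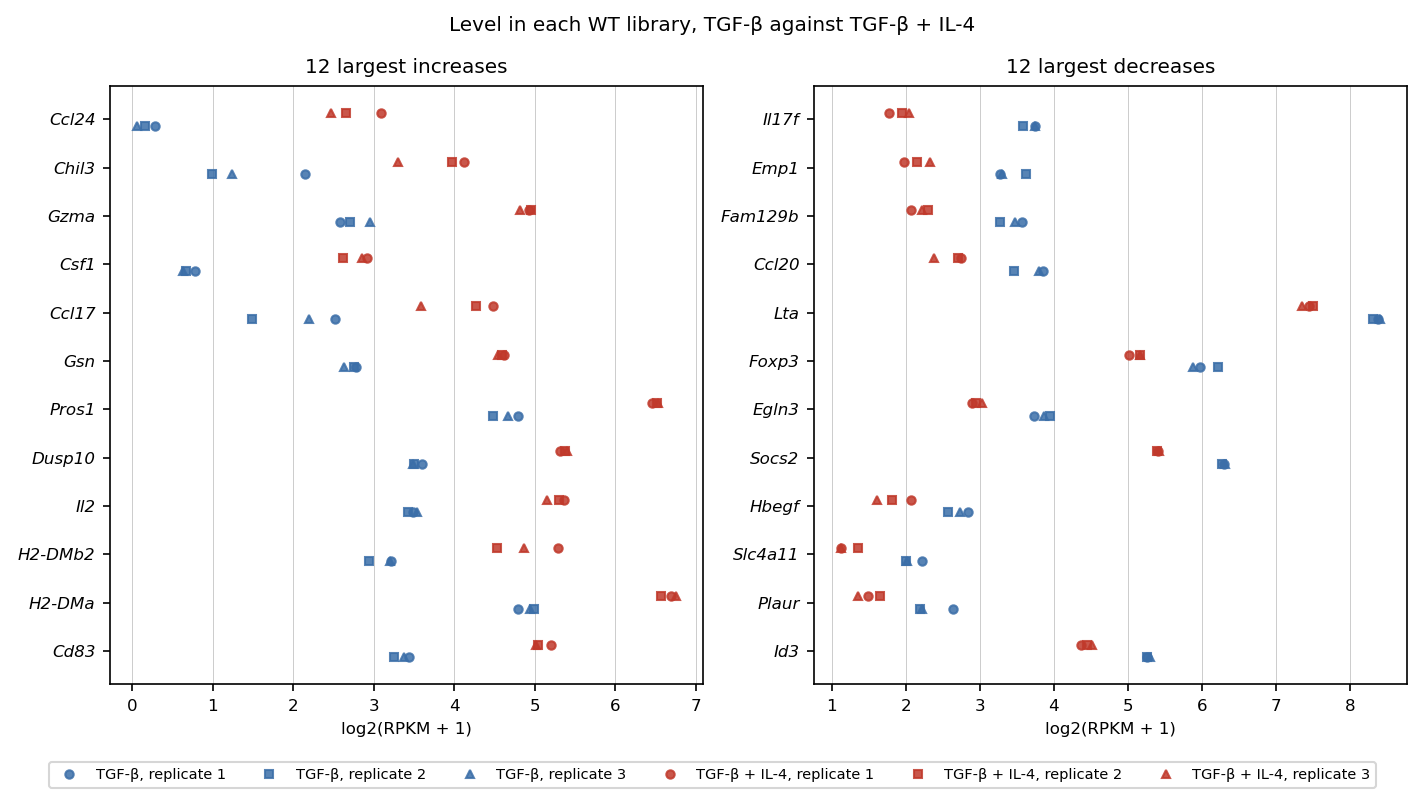
log2(RPKM + 1) of the 12 genes with the largest increase (left) and the 12 with the largest decrease (right) in each of the 6 WT libraries, with blue for TGF-β, red for TGF-β + IL-4 and circle, square and triangle for replicates 1, 2 and 3. For all 24 genes the colours do not overlap, and *Chil3*, *Ccl17* and *H2-DMb2* spread most within a colour.

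*Chil3* and *Ccl17* are also genes of other cell types, so the markers of such cells are given here. Over 15 myeloid markers, *Chil3* among them, the summed level was 52.4 to 94.0 RPKM with TGF-β and 96.4 to 148 RPKM with TGF-β + IL-4. Of the 6 that could be tested, 2 rose, *Chil3* and *S100a9* (calprotectin subunit of neutrophils; 12.1 ± 3.0 to 24.3 ± 5.3 RPKM, SD, n = 3). The call of *S100a9* was lost without TGF-β replicate 3 or without TGF-β + IL-4 replicate 1 or 2 (log2 change 0.80 to 0.98). *Lyz2*, the lysozyme of macrophages and neutrophils, overlapped between the cultures (16.7, 5.11 and 11.1 against 15, 8.89 and 6.13 RPKM), and the macrophage genes *Mrc1* and *C1qa* were under 0.1 RPKM in all 6. *Chil3*, *S100a9* and its partner *S100a8* were all highest in replicate 1 of both cultures. Dendritic cell markers summed to 2.78 to 3.89 RPKM and 4.15 to 4.79 RPKM, and mast cell and basophil markers to 8.14 to 13.3 RPKM and 7.05 to 13 RPKM. Erythroid markers, none high enough to be tested, summed to 0.386 to 0.471 RPKM and 0.807 to 1.08 RPKM. The part of such cells in these increases was not tested.

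A further 4 of the 12 largest increases were *Gsn*, *Dusp10*, *Cd83* and *Pros1*. *Gsn*, the actin-severing gelsolin, went from 5.86, 5.74 and 5.18 RPKM to 23.6, 23.1 and 22.3 RPKM (1.86 ± 0.07, adjusted p = 1.2e-06). *Dusp10*, a phosphatase that acts on the p38 and JNK kinases, went from 11.1, 10.3 and 10.2 RPKM to 38.9, 40.4 and 41.3 RPKM (1.84 ± 0.06, adjusted p = 7e-07). Replicates of both genes lay close together within each culture. *Cd83*, a surface protein of activated lymphocytes and dendritic cells, went from 9.85, 8.51 and 9.40 RPKM to 35.7, 32.0 and 31.3 RPKM (1.73 ± 0.07, adjusted p = 1.9e-06). *Pros1*, protein S, an anticoagulant and ligand of the TAM receptor tyrosine kinases, went from 26.6, 21.4 and 24.5 RPKM to 87.1, 90.5 and 91.5 RPKM (1.85 ± 0.07, adjusted p = 1.3e-06).

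*H2-DMa* and *H2-DMb2*, which load peptides onto MHC class II molecules, were also among the 12 largest increases. *H2-DMa* stood at 26.7, 30.8 and 29.6 RPKM with TGF-β and at 102, 93.8 and 107 RPKM with TGF-β + IL-4 (1.76 ± 0.07, adjusted p = 1.3e-06). *H2-DMb2*, its partner chain, stood at 8.31, 6.69 and 8.20 RPKM and at 38.2, 22.1 and 28.1 RPKM (1.77 ± 0.16, adjusted p = 0.00014). Reads can be shared with the close copy *H2-DMb1*, which rose too (1.31), so the split between the 2 genes is uncertain. A group of 10 class II genes was formed after their values were seen. Of the 8 that could be tested, 4 rose (*H2-DMa*, *H2-DMb1*, *H2-DMb2* and *H2-Oa*) and none fell, with a median of 0.82. Of all genes tested, 2.53% rose and 0.508% fell. The antigen-presenting chains and their chaperone did not pass: *Cd74* was at 128, 98.3 and 125 RPKM against 254, 137 and 163 RPKM (adjusted p = 0.052), and *H2-Aa* at 26.5, 23.6 and 26.9 RPKM against 62.1, 28.5 and 39.1 RPKM (adjusted p = 0.057). Their TGF-β + IL-4 libraries spread widely, with replicate 1 highest and replicate 2 lowest. Without replicate 2 the group had 7 of 9 genes higher, against 2.9% of all genes tested.

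B cells carry class II molecules, and their 8 markers summed to 16.9 to 20.5 RPKM with TGF-β and to 49.5, 21.6 and 33.6 RPKM with TGF-β + IL-4, again with replicate 1 highest and replicate 2 lowest. Of 5 tested, *Cd79b*, a chain of the B cell receptor complex, rose (3.12, 3.68 and 4.01 to 16.4, 9.14 and 12.9 RPKM, log2 change 1.55, adjusted p = 0.00038). *Cd79a*, its partner chain, was at 4.89, 6.31 and 5.75 RPKM against 9.77, 4.33 and 7.53 RPKM, so its cultures overlapped. With IL-4, *H2-DMb2*, *Cd74* and *H2-Aa* also had replicate 1 highest and replicate 2 lowest, whereas *H2-DMa* differed less between these libraries. The part of B cells in the increases of class II genes was not tested.

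Chromatin was described from the DNase-seq library of WT TGF-β + IL-4, which has no replicate and no TGF-β counterpart among the libraries, so it shows where chromatin was open with both cytokines and no change. Of the 249 higher genes, 241 had a transcript start in the mm9 annotation, and for 181 (75.1%) a peak lay within 1000 bases of a start, against 91.5% of 9157 genes tested. The share was lower still at the lower genes, 51.6% for those without the repeat described further on and 43.8% for those with it. Peaks had a median fold enrichment of 6.1 at higher genes and 8.64 at all genes tested. The palindrome of TTC and GAA with 4 bases between them, the general form bound by Stat6 and by other STAT dimers, was searched on both strands in the 300 bases round each peak's summit. It was present in 9.94% of those peaks at higher genes and in 5.01% at all genes tested. At lower genes it was present in 2 of 16 peaks of those that lack the repeat and in 0 of 7 of those that hold it. A match is a description of the letters and not a site. Examples among the 12 largest increases are the peaks at *Pros1* and *H2-DMb2*. Their sequences are shown because these are higher genes with open chromatin and this palindrome within 1000 bases of a start. The sequences are written in the direction of the gene, with the palindrome in capitals and with bases of annotated exons left out (NCBIM37, mm9).
*Pros1*, chr16:62853359-62853658, plus strand: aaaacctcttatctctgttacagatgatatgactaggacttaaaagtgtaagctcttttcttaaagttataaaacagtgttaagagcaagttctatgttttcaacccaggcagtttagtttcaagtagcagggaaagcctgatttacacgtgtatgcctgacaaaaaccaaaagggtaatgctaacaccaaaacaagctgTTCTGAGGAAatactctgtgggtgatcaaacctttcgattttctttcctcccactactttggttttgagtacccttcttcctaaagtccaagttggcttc
*H2-DMb2*, chr17:34280021-34280251, plus strand: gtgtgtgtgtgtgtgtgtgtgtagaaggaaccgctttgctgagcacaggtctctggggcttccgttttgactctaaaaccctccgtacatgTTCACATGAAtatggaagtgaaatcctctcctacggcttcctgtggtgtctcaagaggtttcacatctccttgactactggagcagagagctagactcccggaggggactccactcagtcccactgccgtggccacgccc
The summits lay 624 bases before the nearest start of *Pros1* and 81 before that of *H2-DMb2*, with fold enrichments of 5.43 and 9.5 over the local background as the authors' peak caller gave them.

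The components of the IL-4 receptor pathway moved unequally. *Il4ra*, the ligand-binding chain, rose from 53.2, 54.7 and 50.4 RPKM to 89.7, 93.1 and 95.7 RPKM (log2 change 0.80 ± 0.05, adjusted p = 1.2e-05). *Stat6* itself was at 63.0, 56.0 and 55.0 RPKM against 58.3, 61.4 and 58.0 RPKM, with overlapping cultures (0.03, adjusted p = 0.74). The common γ chain, *Il2rg*, was at 332 to 371 against 372 to 385 RPKM, and the kinases *Jak1* and *Jak3* differed by 0.27 and 0.25 and were not called. Feedback inhibitors of the SOCS family parted. *Socs1* rose from 137, 138 and 130 RPKM to 262, 237 and 252 RPKM (0.89, adjusted p = 7.5e-06), and *Cish* rose from 98.4, 116 and 90.1 RPKM to 149, 157 and 151 RPKM (0.59, adjusted p = 0.0012). *Socs2* fell from 77.6, 76.0 and 78.2 RPKM to 41.2, 41.2 and 41.6 RPKM (-0.89, adjusted p = 2.6e-06), with hardly any spread within a culture. *Cish* lies near the fold threshold, and its call was lost without TGF-β replicate 1 (0.57), TGF-β replicate 3 (0.51) or TGF-β + IL-4 replicate 2 (0.57). Of the 14 tested members of this list, 3 rose and 1 fell, with a median of 0.26.

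*Gata3*, the Th2 lineage factor, rose too. It was at 11.8, 9.86 and 10.2 RPKM with TGF-β and at 33.6, 33.0 and 32.3 RPKM with TGF-β + IL-4, a 3.11-fold difference in the means (1.55 ± 0.07, adjusted p = 2.1e-06). Among Th2 genes, *Nfil3*, a basic leucine zipper factor, rose from 8.83 ± 0.41 to 16.5 ± 0.27 RPKM (SD, n = 3) and the chemokine receptor gene *Ccr4* from 22.5 ± 1.2 to 40.3 ± 1.6 RPKM. These were 3 of 6 tested members, none fell, and the median was 0.68. The Th2 cytokine genes *Il5* and *Il13* had means under 1 RPKM and were not tested, and *Il4* was at 1.55, 0.506 and 0.541 RPKM against 1.02, 2.82 and 1.41 RPKM, which overlap. *Ccr8*, a Th2 and Treg chemokine receptor, was high in all 6 libraries, at 359 to 381 RPKM against 348 to 379 RPKM (-0.02, adjusted p = 0.85).

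**Figure D2:**
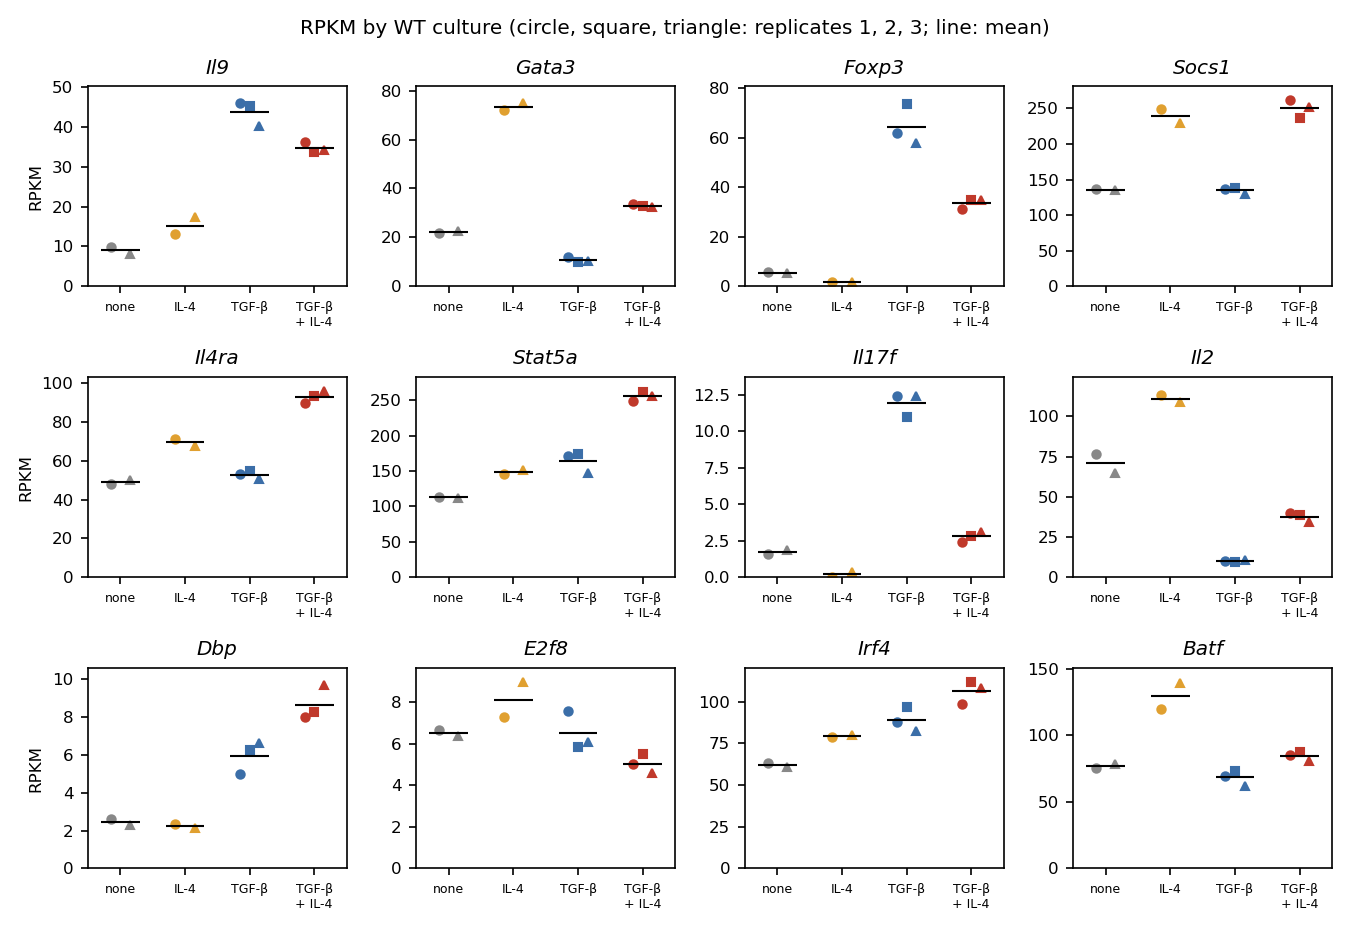
RPKM of 12 genes in WT cultures without added cytokine, with IL-4, with TGF-β and with TGF-β + IL-4, where circle, square and triangle are replicates 1, 2 and 3 and the line is the mean. Replicate 2 is drawn for the TGF-β and TGF-β + IL-4 cultures, where it rests on the order of columns. *Foxp3* and *Il17f* are highest with TGF-β alone, *Gata3* with IL-4 alone, and *Il9* is higher in every library with TGF-β than in any without it.

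*Il9* was not raised by adding IL-4. It was at 45.9, 45.2 and 40.1 RPKM with TGF-β and at 36.1, 33.6 and 34.1 RPKM with TGF-β + IL-4, so that every library with IL-4 was lower (43.7 ± 3.2 against 34.6 ± 1.3 RPKM, SD, n = 3). The log2 change was -0.33 ± 0.06 with an adjusted p of 0.0063, and the fold change stayed under 1.5, so the gene was not called. In cultures without TGF-β it was at 9.93 and 8.15 RPKM with no cytokine and at 13 and 17.4 RPKM with IL-4 alone. The gene lies at chr13:56580638-56583607 in mm9. Among 14 tested genes of the Th9 programme, 2 rose, 1 fell and 11 did not pass, with a median of 0.21. *Stat5a*, a STAT of cytokine signalling, rose from 171, 173 and 147 RPKM to 248, 262 and 255 RPKM (0.64, adjusted p = 0.00022), a call lost without TGF-β replicate 3 (0.56). *Batf3*, an AP-1 family factor, rose from 4.72 ± 0.11 to 10.8 ± 0.79 RPKM (1.04, adjusted p = 2.6e-05). *Id3*, an inhibitor of E proteins, fell from 37.2, 37.1 and 38.3 RPKM to 19.6, 20.8 and 21.9 RPKM (-0.83, adjusted p = 1.9e-05). The Th9 factors *Irf4* (82.2 to 96.6 against 98.5 to 112 RPKM; 0.25, adjusted p = 0.029) and *Batf* (62.3 to 73.3 against 80.7 to 87.5 RPKM; 0.30, adjusted p = 0.011) were not called, although neither overlapped between the cultures. *Dbp*, the circadian factor of the study, was at 4.97, 6.24 and 6.62 RPKM against 8.01, 8.25 and 9.72 RPKM (0.48, adjusted p = 0.014), and the atypical E2F factor *E2f8* at 7.59, 5.84 and 6.10 RPKM against 5.01, 5.51 and 4.62 RPKM (-0.31, adjusted p = 0.059). Neither gene was called. The paper, which used edgeR, reports *Dbp* as increased and *E2f8* as decreased with TGF-β + IL-4 against TGF-β, the same signs as here. The read counts it lists cover replicates 1 and 3 of these cultures, whereas all 3 were used here. By RT-PCR and western blot the paper also reports more *Dbp* and less *E2f8* with both cytokines, there against T cell receptor stimulation alone. For *Il9*, the paper states that neither cytokine alone makes T cells transcribe it, which differs from the levels above with TGF-β alone. The reason for these differences was not tested. Of 9 tested clock genes without *Dbp*, none was called (median 0.18).

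The lineage factor of Treg cells fell. *Foxp3* was at 61.9, 73.4 and 57.6 RPKM with TGF-β and at 31.4, 34.8 and 34.8 RPKM with IL-4 added (-0.91 ± 0.09, adjusted p = 0.00015), and it was at 5.23 to 5.76 RPKM with neither cytokine. Of the other 13 tested Treg genes, 1 rose and none fell. *Itgae*, the CD103 integrin chain, rose from 4.10, 4.60 and 3.98 RPKM to 7.0, 8.69 and 8.76 RPKM (0.80, adjusted p = 0.00059), while *Capg* was at 925 to 964 against 940 to 972 RPKM and *Nt5e*, encoding the ectoenzyme CD73, at 19.5 to 19.8 against 18.3 to 21.2 RPKM. The median was 0.01. *Il2ra*, the high-affinity IL-2 receptor chain, was at 89.9 to 92.3 against 67.2 to 71.8 RPKM (-0.38, adjusted p = 0.00057), short of the fold threshold.

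Among 7 tested Th17 genes 2 fell and none rose (median -0.08). *Il17f*, a Th17 cytokine gene at chr1:20767232-20774351 in mm9, had the largest decrease of all genes, from 12.4, 11.0 and 12.4 RPKM to 2.41, 2.85 and 3.13 RPKM (-1.77 ± 0.09, adjusted p = 3.5e-06). *Ccr6*, a Th17 chemokine receptor, fell from 15.9, 14.5 and 15 RPKM to 9.79, 9.88 and 7.76 RPKM (-0.67, adjusted p = 0.0012), and its call was lost without TGF-β + IL-4 replicate 3 (-0.57). *Ccl20*, the ligand of Ccr6, fell as well, from 13.4, 9.97 and 13 RPKM to 5.71, 5.55 and 4.22 RPKM (-1.09, adjusted p = 0.00054). *Il17a*, the other main Th17 cytokine gene, overlapped at 1.19, 1.80 and 3.93 RPKM against 1.83, 0.726 and 1.66 RPKM.

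Further genes of the 12 largest decreases, and *Sesn2*, are given next. *Lta*, lymphotoxin α, fell from 332, 317 and 338 RPKM to 174, 180 and 162 RPKM (-0.93, adjusted p = 6.1e-06), and was by level the highest of the lower genes named. *Emp1*, an epithelial membrane protein, fell from 8.70, 11.3 and 8.82 RPKM to 2.95, 3.44 and 4.02 RPKM (-1.25, adjusted p = 0.00015), and *Fam129b*, a Niban family protein, from 10.8, 8.62 and 10.2 RPKM to 3.21, 3.91 and 3.66 RPKM (-1.24, adjusted p = 5.1e-05). Both were near 1 RPKM or under it in cultures without TGF-β (0.0976 to 0.178 RPKM for *Emp1* and 0.655 to 1.15 RPKM for *Fam129b*). The oxygen-sensing prolyl hydroxylase gene *Egln3* fell from 13.4 ± 1.1 to 6.79 ± 0.38 RPKM, the stress-response gene *Sesn2* from 20.5 ± 2.4 to 11.5 ± 1.4 RPKM, and *Hbegf*, an EGF receptor ligand, from 5.58 ± 0.61 to 2.59 ± 0.58 RPKM (SD, n = 3). *Slc4a11*, a membrane transporter, fell from 3.64, 3.00 and 3.07 RPKM to 1.19, 1.56 and 1.19 RPKM. *Plaur*, the urokinase receptor, fell from 5.20, 3.58 and 3.65 RPKM to 1.81, 2.15 and 1.57 RPKM (-0.85, adjusted p = 0.0022), and its call was lost without TGF-β + IL-4 replicate 1 (-0.84) or 3 (-0.78).

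Many of the other lower genes shared a profile across libraries. *Zmynd8*, a chromatin reader gene at chr2:165609654-165724516, was at 130, 97.8 and 126 RPKM with TGF-β and at 84.8, 65.5 and 73.5 RPKM with TGF-β + IL-4, lowest in replicate 2 of each. Over the 12 WT libraries, 25 of the 50 lower genes, *Zmynd8* included, had a correlation with it above 0.9 (0.917 to 0.9999 without itself), and the other 25 reached at most 0.729. This was found after the values were seen, the 6 libraries that gave the calls are among the 12, and the libraries differ in depth. A correlation with *Zmynd8* above 0.9 was found in 248 (2.52%) of all genes tested and in 0 of the higher genes. Of the lower genes called without replicate 2 the share was 22.9%, and of the 180 called without TGF-β replicate 2 it was 25.6% (46 genes). Both sets contain all 50, and among the genes new to them the shares were 11.2% and 16.2%. *Omd*, the bone proteoglycan osteomodulin, fell from 119, 89.9 and 112 RPKM to 78.5, 63.0 and 68.3 RPKM, and *Chrna1*, a muscle acetylcholine receptor subunit, from 17.6, 12.7 and 16.4 RPKM to 11.0, 9.05 and 9.36 RPKM. The calls of *Zmynd8* (-0.64 to -0.56) and *Omd* (-0.59 to -0.52) were lost without TGF-β replicate 1 or 3 or TGF-β + IL-4 replicate 2 or 3, and that of *Chrna1* (-0.69 to -0.52) without any 1 library other than TGF-β replicate 2. Of the 47 lower genes with annotated exons in mm9, 16 (34.0%) hold the following 24 bases in an exon on either strand, shown because it is the letters these genes share. The run is part of the B2 family of short interspersed repeats, which occurs in very many places of the mouse genome.
Run of 24 bases, read in exons of *Zmynd8*: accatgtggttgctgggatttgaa
All 16 were among the 25. The run was picked because no other 24 bases were held by more of the lower genes, so its share among them is raised by that choice. It was held by 19.4% of the lower genes without replicate 2 and 20.8% of those without TGF-β replicate 2. Among the genes new to these 2 sets, which contain all 50, the shares were 13% and 15.7%. Its share was 2.64% of all genes tested and 0.830% of the higher genes. Reads from one copy can fall on another, and the authors left out reads that mapped poorly, so the levels of these genes are uncertain. Whether their values come from the genes or from the repeat was not tested. Without the genes holding the run, 34 lower and 247 higher genes remained.

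**Figure D3:**
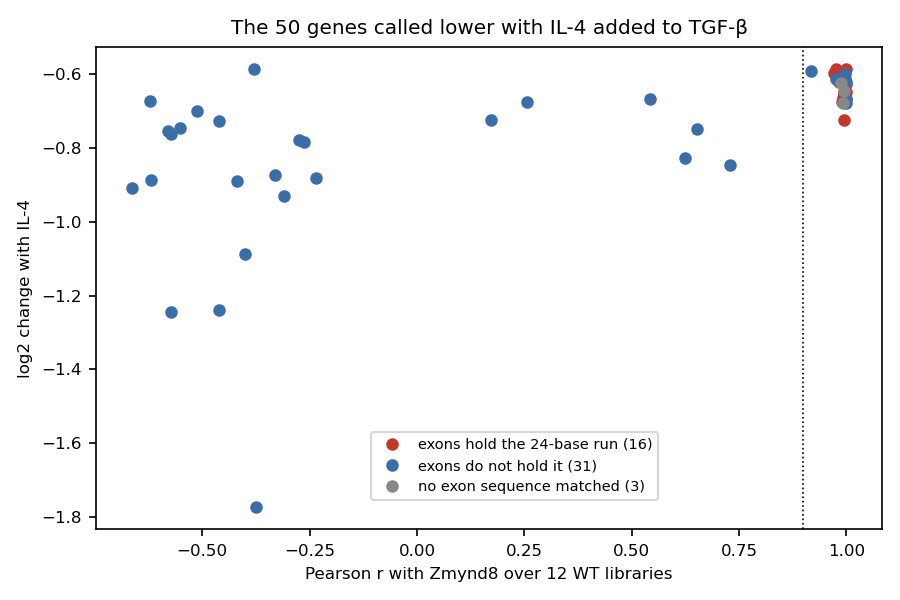
Each point is 1 of the 50 lower genes, with its Pearson correlation with *Zmynd8* over 12 WT libraries on the x axis and its log2 change with IL-4 on the y axis. The 25 genes to the right of the dotted line at 0.9 lie between -0.73 and -0.59 and include all 16 whose exons hold the 24-base run, in red.

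The remaining lists were described by their counts, set against 2.53% of all genes higher and 0.508% lower and a median of 0.00. Of 10 tested Th1 genes, 2 rose, with a median of 0.18. *Ifng*, the Th1 cytokine, rose from 17.1, 13.6 and 18.8 RPKM to 30.4, 30.9 and 25.5 RPKM (0.78, adjusted p = 0.0016), and *Stat4*, the STAT of IL-12 signalling, from 6.10, 4.50 and 5.3 RPKM to 8.73, 10.5 and 10.7 RPKM (0.81, adjusted p = 0.0012). The call of *Ifng* was lost without TGF-β + IL-4 replicate 2 (0.73). *Tbx21*, encoding the Th1 factor T-bet, was at 57.9 to 67.5 against 61.7 to 67.6 RPKM. Of 12 cytotoxic and chemokine genes, 3 rose (median 0.16): *Gzma*, *Gzmb* (24.9 ± 2.3 to 52.0 ± 5.5 RPKM) and the granzyme B inhibitor *Serpinb9* (5.94 ± 1.4 to 13.6 ± 0.44 RPKM). CD8 T cells and NK cells also carry granzymes. *Cd8a* rose from 5.04, 5.06 and 5.58 RPKM to 8.87, 8.48 and 8.13 RPKM (0.61, adjusted p = 0.00059), a call lost without TGF-β + IL-4 replicate 1 (0.58). The sum of the 2 CD8 markers, *Cd8a* and *Cd8b1*, was 16.6 to 17.3 against 25.3 to 26.7 RPKM, and that of 6 NK markers 4.33 to 5.63 against 6.26 to 7.48 RPKM. Their part in these increases was not tested.

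Of 12 activation cytokine genes, 3 rose (*Il2*, *Csf1* and *Tnfsf8*, the CD30 ligand, from 5.42 ± 0.14 to 10.2 ± 0.40 RPKM) and *Lta* fell, with a median of 0.36. The inhibitory receptors gave 2 of 8 higher and none lower (median 0.32). *Lag3*, which binds MHC class II, rose from 44.5, 43.7 and 39.4 RPKM to 109, 118 and 108 RPKM (1.37, adjusted p = 1.9e-06), and *Tigit*, a further inhibitory receptor, from 13.5, 12.2 and 12.4 RPKM to 22.9, 24.2 and 20.9 RPKM (0.79, adjusted p = 0.00011). *Pdcd1*, encoding PD-1, was at 101 to 111 against 87.3 to 95.8 RPKM (-0.19, adjusted p = 0.040) and was not called.

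Genes of naïve T cells and of homing had 5 of 18 higher and 1 lower (median 0.21). The factor genes *Satb1* (5.31 ± 0.47 to 11.3 ± 0.35 RPKM) and *Tcf7* (41.6 ± 2.2 to 68.7 ± 5.9 RPKM) rose, as did *Cd44*, an adhesion receptor that marks activation (26.8 ± 0.95 to 48.4 ± 2.5 RPKM). *Ly6c1* fell from 173, 182 and 175 RPKM to 108, 101 and 111 RPKM, and its close copy *Ly6c2* was at 49.3 to 53.7 against 42.7 to 46.1 RPKM, so that the split of reads between them is uncertain.

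**Figure D4:**
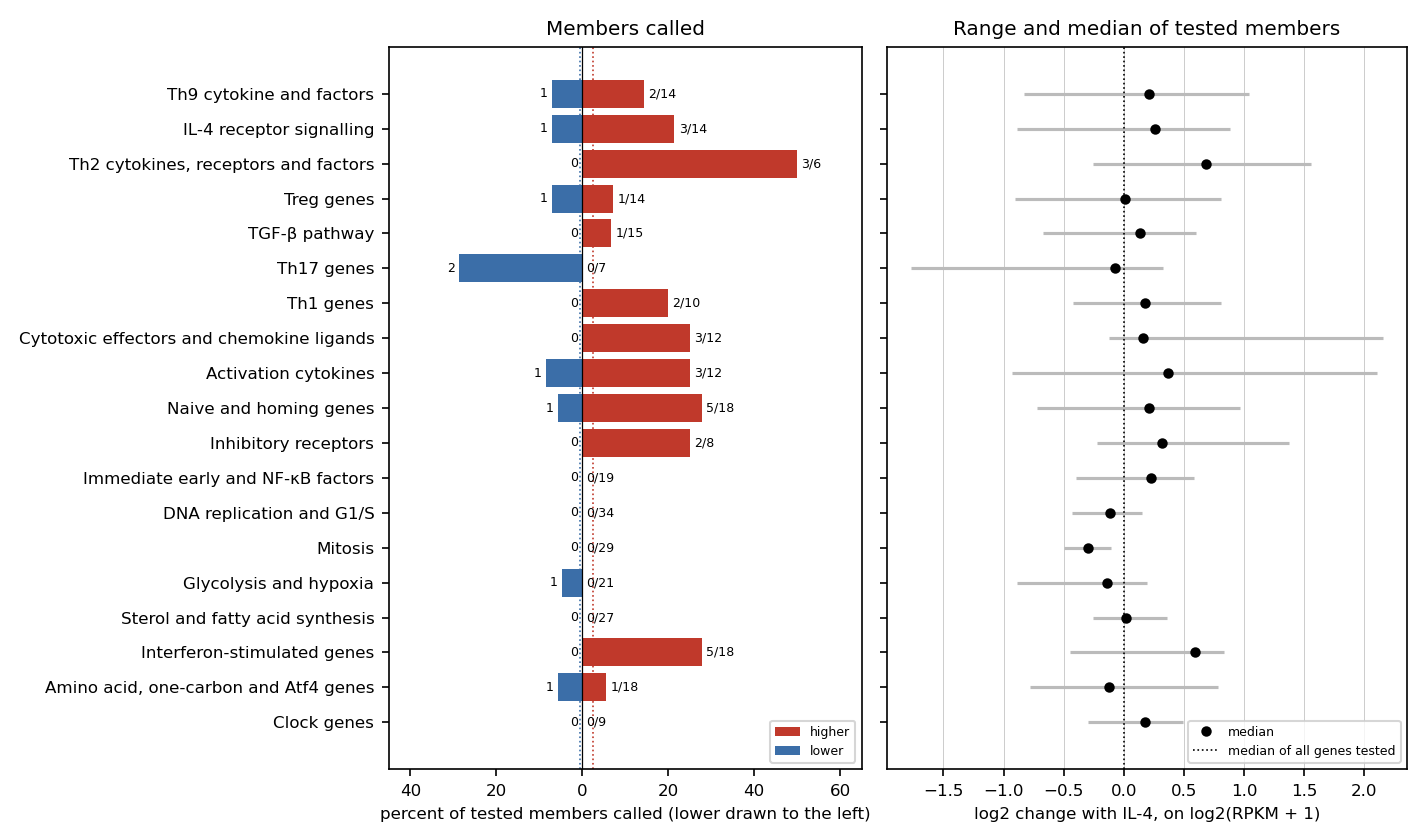
Left, percent of the tested members of 19 gene lists called higher (red) or lower (blue, drawn to the left) when IL-4 was added to TGF-β, with the counts beside the bars and dotted lines at 2.53% and 0.508%, the shares of all genes. Right, lowest, median and highest log2 change of the tested members, with Th2 genes highest in the median (0.68), interferon-stimulated genes next (0.59), and mitosis genes all below 0.

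Interferon-stimulated genes had the second highest median of the 19 lists, 0.59, with 5 of 18 tested members higher, none lower and 16 above 0. *Stat2*, a STAT of interferon signalling, rose from 3.18, 2.83 and 2.61 RPKM to 5.17, 5.11 and 6.47 RPKM (0.76, adjusted p = 0.0010), *Irf7* from 3.68, 4.28 and 4.06 RPKM to 7.0, 6.55 and 10.6 RPKM (0.83, adjusted p = 0.0047), and *Isg15*, a ubiquitin-like modifier, from 5.54, 4.21 and 6.51 RPKM to 10.2, 9.19 and 11.0 RPKM (0.81, adjusted p = 0.0025). *Usp18*, which removes Isg15 from proteins, rose by 0.64, and *Gbp2*, a guanylate-binding protein, by 0.59 (176, 176 and 184 to 268, 258 and 284 RPKM). The call of *Gbp2* was lost without TGF-β replicate 1 or 2 or TGF-β + IL-4 replicate 3 (0.56 to 0.58), that of *Irf7* without TGF-β replicate 1 or 3 or TGF-β + IL-4 replicate 1 (0.78 to 0.91), and that of *Isg15* without TGF-β replicate 1 or TGF-β + IL-4 replicate 1 or 3 (0.75 to 0.83). Without replicate 2, 7 members rose. *Xaf1* and *Bst2*, of the same list, were below 0 (-0.45 and -0.06) and not called.

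Few proliferation and metabolism genes passed the test. None of 34 DNA replication genes (median -0.11) and none of 29 tested mitosis genes (median -0.30) was called. All 29 mitosis genes were below 0, from -0.50 to -0.11, and 17 had an adjusted p under 0.05 with the fold threshold left aside. Over all 9852 genes tested, 4811 were below 0. By the same limma criterion without the fold threshold, 897 of the 9852 were lower and 1210 higher. *Cdc20*, an activator of the anaphase-promoting complex, was at 55.7, 51.8 and 52.4 RPKM against 44.8, 42.0 and 35.4 RPKM (-0.39, adjusted p = 0.0096), and *Plk1*, a mitotic kinase, at 27.1, 23.2 and 23.6 RPKM against 19.6, 19.1 and 15.4 RPKM (-0.43, adjusted p = 0.012). Among 21 glycolysis and hypoxia genes *Egln3* fell and none rose (median -0.14), with *Ldha*, lactate dehydrogenase A, at -0.30 (adjusted p = 0.0035). No gene of 27 for sterol and fatty acid synthesis was called (median 0.02). Of 18 amino acid and Atf4 genes 1 rose and 1 fell (median -0.12): *Ddit3*, the stress factor CHOP, went from 5.89 ± 0.13 to 10.8 ± 0.38 RPKM, and the other was *Sesn2*. None of 19 immediate early and NF-κB factors was called, with a median of 0.22. In the TGF-β pathway 1 of 15 tested genes rose (median 0.13). It was *Tgfbr3*, the co-receptor betaglycan (8.53, 8.63 and 7.09 to 10.9, 13.8 and 13.7 RPKM; 0.60, adjusted p = 0.0044), and its call was lost without TGF-β replicate 1 or 3 or TGF-β + IL-4 replicate 2 or 3 (0.52 to 0.64). *Tgfbr1* was at 13.9, 14.0 and 14.5 RPKM against 17.6, 19.5 and 20.7 RPKM (0.42, adjusted p = 0.0031) and was not called, the fold being under 1.5.

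Whether TGF-β altered the response to IL-4 was tested as an interaction in the 8 libraries that read counts identify, replicates 1 and 3 of the cultures with no cytokine, IL-4, TGF-β and TGF-β + IL-4. Of 9799 genes tested, 77 (0.786%) had an IL-4 effect that was higher with TGF-β than without it and 14 (0.143%) one that was lower. *Ccr8* stood at 53.7 and 58.1 RPKM with no cytokine and at 125 and 153 RPKM with IL-4 alone, against 381 and 368 RPKM with TGF-β and 379 and 348 RPKM with both, so that the change with IL-4 was 1.29 without TGF-β and -0.04 with it (difference -1.33, adjusted p = 0.0014). *AW112010*, an inducible transcript of activated T cells, stood at 211 and 211 RPKM with no cytokine and at 250 and 220 RPKM with IL-4, against 93.8 and 106 RPKM with TGF-β and 274 and 313 RPKM with both (difference 1.40, adjusted p = 0.0011). *Ms4a6b*, a membrane protein of T cells, stood at 119 and 136 RPKM with no cytokine and at 67.7 and 55.7 RPKM with IL-4, against 51.6 and 61.9 RPKM with TGF-β and 80.9 and 96.1 RPKM with both (difference 1.67, adjusted p = 0.0019). Each of these calls was lost without at least 1 of the 8 libraries, TGF-β replicate 1 for all 3 genes (-1.31, 1.31 and 1.54), for *Ccr8* also TGF-β replicate 3 (-1.36) and TGF-β + IL-4 replicate 3 (-1.27), and for *Ms4a6b* also TGF-β + IL-4 replicate 3 (1.55). Without single libraries the 77 and 14 genes became 36 and 2 (no cytokine, replicate 1), 41 and 34 (no cytokine, replicate 3), 131 and 49 (IL-4, replicate 1), 44 and 16 (IL-4, replicate 3), 3 and 1 (TGF-β, replicate 1), 10 and 1 (TGF-β, replicate 3), 23 and 2 (TGF-β + IL-4, replicate 1) and 6 and 1 (TGF-β + IL-4, replicate 3).

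**Figure D5:**
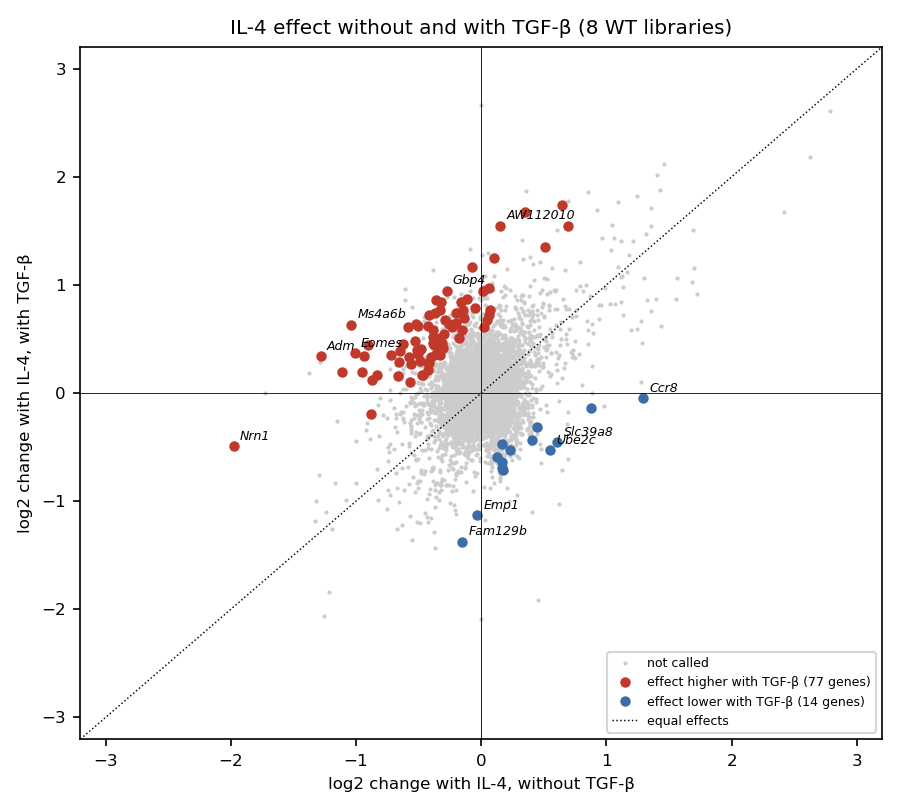
log2 change with IL-4 for each of 9799 genes, without TGF-β on the x axis and with TGF-β on the y axis, from 8 WT libraries. Genes whose effects differed are red (77, higher with TGF-β) or blue (14, lower with TGF-β), and *Ccr8* lies far to the right at a y value of -0.04.

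Guanylate-binding proteins, interferon-inducible GTPases, were grouped after their values were seen. All 11 were above 0 when IL-4 was added to TGF-β, 5 rose (median 0.58), and 9 of 11 had a higher effect with TGF-β than without it. Of all 9852 genes tested, 5041 were above 0 and 2.53% rose. In the interaction, 0.786% of 9799 genes had a higher effect with TGF-β. The 9 became 1 without TGF-β replicate 1, 4 without TGF-β replicate 3 and 1 without TGF-β + IL-4 replicate 3, and 8 or 9 without any other single library. *Gbp4* was at 48.2 and 53.4 RPKM with no cytokine and at 42.5 and 40.9 RPKM with IL-4, against 15.5 and 15.1 RPKM with TGF-β and 29.3 and 31.5 RPKM with both (difference 1.22, adjusted p = 0.00084), and its call held without each of the 8 libraries in turn. Its level was thus lowest in the TGF-β libraries, and with both cytokines it lay between those and the cultures without TGF-β. These genes are close copies of each other, and reads may be split among them.

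The response of the called genes to IL-4 alone was set beside their response in TGF-β, which rests on TGF-β libraries that both fits share. The genes were picked by their change in TGF-β, which is itself a part of the interaction. A larger median with TGF-β and the direction of the interaction are therefore favoured by that choice. Of the 244 higher genes tested in the 8 libraries, 195 (79.9%) were also above 0 with IL-4 alone, 54 were called higher there and 1 lower. Over all 9799 genes, 48.5% were above 0 with IL-4 alone, 0.776% were called higher and 0.551% lower. The median of the 244 higher genes was 0.33 with IL-4 alone and 0.77 when IL-4 was added to TGF-β. For 31 of the 244 the interaction was called, each time higher with TGF-β. Of the 50 lower genes, 19 (38.0%) were below 0 with IL-4 alone, 9 were called lower there, and the medians were 0.09 and -0.68. These 50 include the 25 genes correlated with *Zmynd8* above 0.9, many with uncertain levels, which were not split off here. Medians with IL-4 alone come from the fit of 8 libraries and those with TGF-β from the fit of 6. *Gata3*, at 21.7 and 22.5 RPKM with no cytokine and 72.3 and 74.8 RPKM with IL-4 alone, rose in both settings, with no difference called between them (interaction -0.18, adjusted p = 0.33). *Socs1*, at 137 and 135 RPKM and at 250 and 230 RPKM, had none called either (interaction 0.13, adjusted p = 0.41). *Il2*, in contrast, was at 76.6 and 64.9 RPKM with no cytokine and at 113 and 109 RPKM with IL-4 alone, and its change was larger with TGF-β (interaction 1.09, adjusted p = 0.0028). That call was lost without TGF-β replicate 1 (1.07) or 3 (1.12) or TGF-β + IL-4 replicate 1 (0.98) or 3 (1.20).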

How the data were processed

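In all, 6 WT RNA-seq libraries were compared, with 4 further WT libraries in the interaction. Per the labels and the methods, RNA of sorted CD4+ T cells was made into Smart-seq2 libraries, and the authors deposited RPKM, normalized to gene length and mapped reads, from Bowtie2 alignments (mm9) that had been cleared of poorly mapped and of redundant reads. Tool versions are not given in the sources used here. The authors called DNase-seq peaks with MACS on each library, and the fold enrichment over local background is used as deposited. Total read numbers are unknown.

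Columns were assigned in library-number order, which conflicts with their headings. The 12 value columns of KO cultures were not used, nor was any column of the authors' own comparisons. log2(RPKM + 1) was fitted with limma 3.58.1 in R 4.3.3, with moderation by a trend, where the mean RPKM reached 1. Calls needed a Benjamini-Hochberg adjusted p below 0.01 and more than a 1.5-fold difference on this scale, which understates that of low genes. The limma scripts were tested on simulated data. Tables and figures used Python 3.11.15, pandas 2.3.3, numpy 2.4.6 and matplotlib 3.10.9. Positions, exons and sequences are of NCBIM37 (mm9) with GENCODE vM1.

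The text names the 12 largest increases and decreases changed the same way in all 3 same-numbered pairs, at most 5 called members of each of 19 pathway and 8 marker lists, the 5 largest interactions each way, and *Il9*, *Dbp*, *E2f8*, *Stat5a*, *Tgfbr1*, *Il4ra*, *Stat6*, *Gata3*, *Foxp3*, *Irf4* and *Batf*. A few genes and sequences are not reported here. Other names were chosen after their values were seen. Comparison, lists and tests were chosen with earlier results of these data known. Alternatives were another pseudocount, other filters, scalings, moderation and thresholds, all WT libraries in the fit, the replicate block, the columns as headed and leaving out libraries.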

Additional observations from a re-analysis of the deposited data

Results flagged for a closer look

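Among the genes whose response to IL-4 differed with and without TGF-β by the interaction term in limma, the 5 with the largest difference in each direction are given here on the log2 scale, as the change with TGF-β minus the change without it. *Ms4a6b* differed by 1.67, *Adm*, the peptide hormone adrenomedullin, by 1.62 (-1.28 with IL-4 alone and 0.34 with TGF-β), *Nrn1*, neuritin, by 1.49 (-1.98 and -0.49), *AW112010* by 1.40 and *Eomes*, a T-box factor of cytotoxic cells, by 1.38 (-1.01 and 0.37). In the other direction, *Ccr8* differed by -1.33, *Fam129b* by -1.22 (-0.15 and -1.37), *Emp1* by -1.10 (-0.03 and -1.13), *Ube2c*, a ubiquitin-conjugating enzyme of mitosis, by -1.07 (0.55 and -0.53) and *Slc39a8*, a zinc transporter, by -1.06 (0.61 and -0.45). *Emp1* and *Fam129b* were near 1 RPKM or under it without TGF-β, so a fall with IL-4 alone had little room to show. Each of the 10 genes lost its call without TGF-β replicate 1. *Adm* (1.51 to 1.74) and *Eomes* (1.28 to 1.48) lost it when any 1 of the 4 libraries with TGF-β was left out. *Emp1* (-1.27 to -0.93), *Fam129b* (-1.29 to -1.15), *Nrn1* (1.38 to 1.60), *Slc39a8* (-1.13 to -0.94) and *Ube2c* (-1.21 to -0.92) each lost it on leaving out any 1 of 5 to 7 of the 8 libraries. The sign held in each case.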

How the results depend on the processing

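The 249 higher and 50 lower genes became 633 and 279 with no fold minimum and 0 and 0 with the columns as headed. The lower genes became 20 with no filter on low values, 30 with moderation without a trend, and 182 without replicate 2 with the replicate block, which was chosen after seeing the data. The labels do not say that a replicate number pairs libraries, and deviations of same-numbered libraries from their culture means correlated at -0.03, 0.05 and 0.05. The replicate block on all 6 libraries gave 271 and 67 genes. Leaving out a replicate or library gave 129 to 286 higher and 14 to 180 lower genes. The genes with an IL-4 effect higher with TGF-β became 1 with no filter, 230 at an adjusted p under 0.05 and 139 with all 12 WT columns, and 3 to 131 without single libraries. Those with a lower effect became 8 with a pseudocount of 0.1, 0 with no filter, 30 at a mean RPKM of at least 5, 34 with the replicate block, 143 at an adjusted p under 0.05 and 34 with all 12 WT columns, and 1 to 49 without single libraries. The no-filter fits tested low genes too. Why the other counts moved was not tested.

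With the columns as headed, the log2 change turned sign for *Cd8a* (-0.017), *Chil3* (-0.13), *Dbp* (-0.00457), *E2f8* (0.13), *Egln3* (0.070), *Emp1* (0.027), *Fam129b* (0.16), *Gbp2* (-0.12), *H2-DMb2* (-0.17), *Hbegf* (0.034), *Il9* (0.13), *Stat6* (-0.073), *Tcf7* (-0.044) and *Tgfbr3* (-0.095). *Stat6*, not called, ranged from -0.018 to 0.10 without a replicate or library, and was -0.018 without replicate 2 with the block. The RPKM give no read totals, so depth limits the genes near 1 RPKM by an amount that is unknown. The call of 1.5-fold leaves out smaller differences that pass the p threshold.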
